A study of Mus musculus with 12 samples.

Results

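Regional patterning transcription factors are DNA-binding proteins that give each territory of the embryonic brain its identity, and many of them stay on in neurons of that territory after birth. The 40 factors described here were chosen by name as markers of forebrain, thalamus, midbrain, cerebellum and hindbrain, with earlier results of these data known. Their shares beside all genes are thus a description. Each was matched by gene identifier to 1 row among the 55536 genes counted. The territories are laid out by signalling centres such as the boundary between midbrain and hindbrain, where *Otx2* on the forebrain side and *Gbx2* on the hindbrain side oppose each other. *Engrailed* and *Pax* genes are switched on around that boundary, *Emx* and *Lhx* genes build the cerebral cortex, *Dlx* genes mark its inhibitory neurons, and *Hox* genes number the segments of the hindbrain. In brain tissue after birth, their RNA is widely used as a marker of region.

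RNA-Seq covered whole cerebellum and cerebral cortex from 1-month-old mice that were WT or *Snx14*-KO, with 3 mice per genotype, and both tissues of each mouse were sequenced. *Snx14*-KO mice were homozygous for a frameshift deletion in an exon of *Snx14*, made with Cas9 in C57BL/6J embryos and backcrossed to C57BL/6J. Carriers of other indel alleles made in this way had no homozygous offspring. WT mice were the controls, and neither the labels nor the RNA-Seq methods state whether the sequenced mice were littermates. SNX14 is a sorting nexin whose loss in people leads to a childhood cerebellar ataxia. The 12 libraries held 16672589 to 19887427 gene counts each. *Snx14* itself was at 63.8, 63.8 and 66.4 CPM (counts scaled to library size, with TMM factors over the 12 libraries) in WT cerebella and at 10.4, 10.9 and 11.2 CPM in *Snx14*-KO cerebella. In cortex it was at 53.5 to 59.9 CPM in WT and 7.65 to 8.47 CPM in *Snx14*-KO mice, so each library matched its genotype label. Summed over 8 marker genes, cortical excitatory neuron markers were at 4980 to 5670 CPM in the cortices and 470 to 581 CPM in the cerebella. For 7 cerebellar granule cell markers the sums were 2400 to 3400 CPM in the cerebella and 390 to 437 CPM in the cortices, which matched the tissue labels. Some libraries stood apart. In *Snx14*-KO cerebellum replicates 1 and 3 several thalamic and midbrain factors were high, in WT cortex replicate 1 low counts of midbrain and cerebellar factors were present, and choroid plexus markers varied more than any other marker list among the cerebella.

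Most of the factors that could be tested differed between cerebellum and cortex in both genotypes. In WT mice 26 of the 40 had enough counts to be tested, and 13 were higher and 10 lower in cerebellum than in cortex (adjusted p under 0.05 and a log2 fold change over 0.50 in either direction, the quasi-likelihood test of edgeR, adjusted by Benjamini-Hochberg). Over the 18543 genes tested, 19.0% were higher and 21.4% lower by the same rule. In *Snx14*-KO mice 26 factors were tested, and 13 were higher and 9 lower, against 18.2% and 19.6% of 18542 genes. A factor expressed in only 1 tissue passes the filter on counts through that tissue, so these counts describe the factors and do not measure how unusual they are. The median log2 fold change of the tested factors was 0.60 in WT and 1.09 in *Snx14*-KO mice, beside 0.02 over all genes in both.

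**Figure D1:**
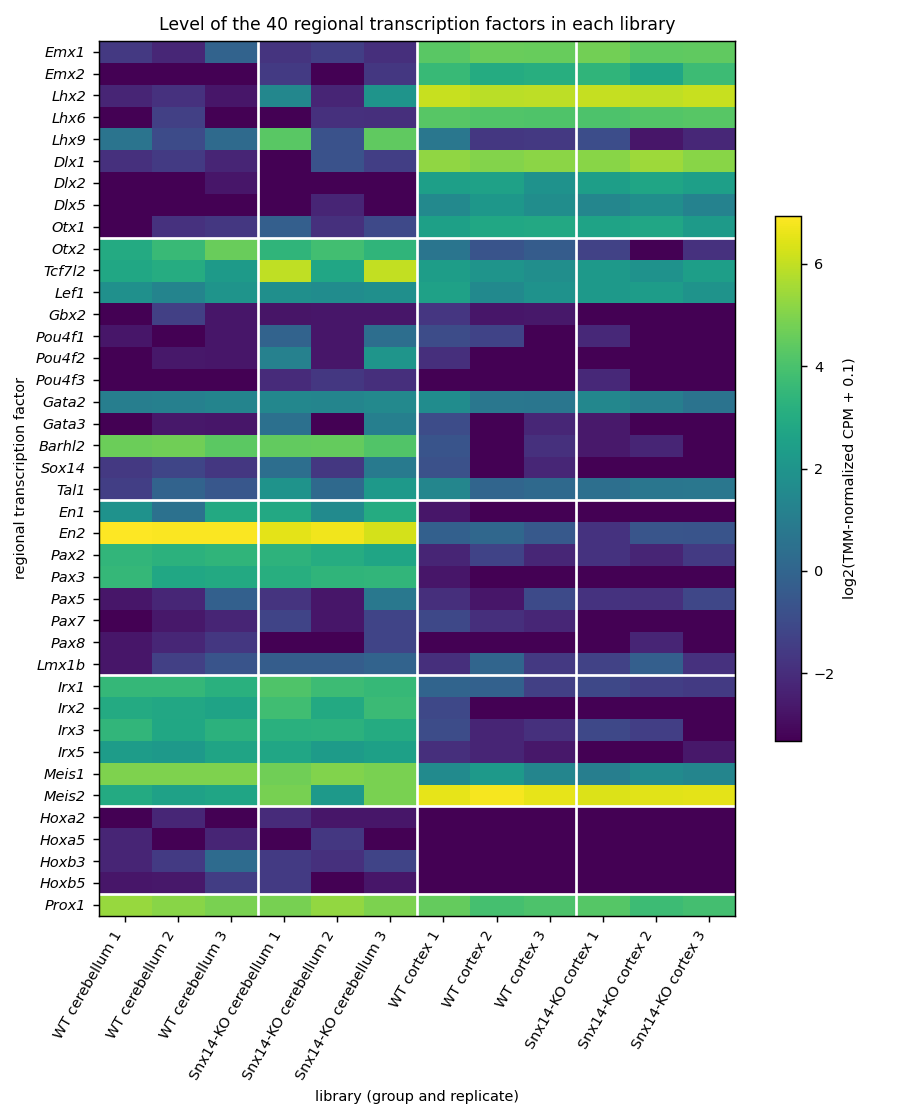
Level of the 40 factors (rows, grouped from top to bottom as forebrain, thalamus and midbrain, midbrain-hindbrain boundary and cerebellum, Iroquois and Meis, Hox, and Prox1) in the 12 libraries (columns), as log2 of TMM-normalized CPM plus 0.1. Forebrain rows are bright in the cortices, boundary and Iroquois rows in the cerebella, and Lhx9, Tcf7l2, Meis2, Lhx2, Pou4f2 and Gata3 are brighter in *Snx14*-KO cerebellum replicates 1 and 3 than in the other 4 cerebella.

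Forebrain factors were the cortical group. Of 9, 8 were lower in cerebellum in both genotypes. *Lhx2*, a LIM-homeodomain protein that commits the dorsal telencephalon to cortex, was at 68.2, 58.5 and 61 CPM in WT cortices and at 0.111, 0.174 and 0.0532 CPM in WT cerebella. This is a log2 fold change of -9.04 (SE 0.189, adjusted p = 1.65e-10, quasi-likelihood test). *Emx1*, which marks excitatory neurons of cortex and hippocampus, was at 19.7, 24 and 23.7 CPM in WT cortices and 0.222, 0.116 and 0.851 CPM in WT cerebella, a log2 fold change of -5.76 (SE 0.359, adjusted p = 2.46e-07, quasi-likelihood test) and of -6.99 without WT cerebellum replicate 3. Its paralog *Emx2*, which sets the posterior and medial part of the cortical sheet, was at 12, 7.9 and 8.6 CPM in WT cortices and had 0 counts in the 3 WT cerebella. Against 3 counts over the WT cerebella, *Emx2* was at least 171-fold lower there (adjusted p = 6.62e-07, quasi-likelihood test). None of these cerebella overlapped a cortex. *Otx1*, a homeodomain factor of deep layer cortical neurons, was at 5.68, 6.77 and 7.29 CPM in WT cortices and 0, 0.174 and 0.213 CPM in WT cerebella, with a log2 fold change of -5.59 (SE 0.431, adjusted p = 1.33e-06, quasi-likelihood test).

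The factors of cortical inhibitory neurons followed the same order. *Dlx1*, which drives the migration and survival of interneurons born in the ganglionic eminences, was at 37.9, 32.7 and 36.1 CPM in WT cortices and 0.167, 0.231 and 0.106 CPM in WT cerebella (log2 fold change -7.67, SE 0.197, adjusted p = 3.99e-10, quasi-likelihood test). *Lhx6*, the factor of parvalbumin and somatostatin interneurons, was at 19.2, 17.7 and 17.3 CPM in WT cortices, and 2 of the 3 WT cerebella had 0 counts. Its log2 fold change was -7.50 (SE 0.445, adjusted p = 1.73e-07, quasi-likelihood test), and without WT cerebellum replicate 2, which held all counts of the WT cerebella, it was at least 222-fold lower there. *Dlx2*, which acts beside *Dlx1*, was at 5.47, 5.7 and 3.65 CPM in WT cortices, with a single read pair in the WT cerebella in all. The ratio of cortex to cerebellum was 268 (95% exact counting interval 47.8 to 10600). *Dlx5*, a later member of the same cascade, was at 2.71, 4.25 and 3.13 CPM in WT cortices and had 0 counts in WT cerebella, where it was at least 60.6-fold lower. No cerebellum overlapped a cortex for any of the 4 genes.

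Among *Snx14*-KO mice the 8 forebrain factors were again lower in cerebellum. Log2 fold changes were -6.74 for *Emx1*, -7.34 for *Lhx6* and -7.21 for *Dlx1*, with no overlap between the tissues. With 1 library left out they ran from -7.76 to -6.72 for *Lhx6* and from -8.12 to -6.58 for *Dlx1*. *Lhx2* was at 65.9, 61.4 and 66.7 CPM in *Snx14*-KO cortices, and at 2.63, 0.11 and 3.9 CPM in *Snx14*-KO cerebella. Replicates 1 and 3 of these cerebella thus lay above the 3 WT cerebella while replicate 2 lay among them, and the log2 fold change between the tissues was -4.85 (SE 0.467, adjusted p = 1.44e-05, quasi-likelihood test). Without *Snx14*-KO cerebellum replicates 1 and 3 it was -9.10. *Emx2* showed the same split at lower counts, with 5, 0 and 4 counts in the *Snx14*-KO cerebella, and so did *Otx1*, with 16, 3 and 7 counts. *Dlx2* had 0 counts in the 3 *Snx14*-KO cerebella and was at least 111-fold lower there than in cortex, and *Dlx5* had 2 counts in all, for a ratio of 77.7 (95% exact counting interval 21.1 to 648).

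*Lhx9* was the exception in the forebrain group. This LIM-homeodomain factor marks neurons of the diencephalon and of the midbrain roof more than of the cortex. In WT mice it was at 1.44, 0.405 and 1.06 CPM in cerebella and 1.59, 0.215 and 0.228 CPM in cortices, so the tissues overlapped (log2 fold change 0.51, SE 0.717, adjusted p = 0.564, quasi-likelihood test). WT cortex replicate 1 held 30 of the 38 counts of the WT cortices, and leaving it out gave a log2 fold change of 2.10. *Lhx9* was not tested between the tissues in *Snx14*-KO mice, where it had 410, 9 and 396 counts in cerebella and 7, 1 and 2 counts in cortices.

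Factors of the midbrain-hindbrain boundary were the cerebellar group. *En2*, an Engrailed homeodomain protein that patterns the cerebellar lobules and persists in granule cells, was the most abundant of the 40 factors in cerebellum. It was at 123, 119 and 119 CPM in WT cerebella and 0.797, 0.967 and 0.627 CPM in WT cortices, a log2 fold change of 7.23 (SE 0.115, adjusted p = 4.25e-11, quasi-likelihood test). *Pax2*, which marks precursors of cerebellar inhibitory interneurons, was at 10.8, 9.66 and 10.5 CPM in WT cerebella and 0.106, 0.322 and 0.114 CPM in WT cortices (log2 fold change 5.78, SE 0.3, adjusted p = 5.83e-08, quasi-likelihood test, and 6.47 without WT cortex replicate 2). *Pax3*, a paired-box factor of the dorsal neural tube, was at 11.4, 6.89 and 7.34 CPM in WT cerebella and had a single read pair in the WT cortices in all. The *Pax3* ratio was 470 (95% exact counting interval 83.9 to 18600). *En1*, the partner of *En2* in forming the boundary, was at 3.61, 1.33 and 7.34 CPM in WT cerebella, and the ratio to cortex was 230 (95% exact counting interval 40.8 to 9120). Without WT cortex replicate 1, which held the single *Pax3* and the single *En1* read pair, the bounds were at least 103-fold and at least 50.4-fold. In each of these 4 genes, the cerebella lay above the cortices without overlap. In *Snx14*-KO mice all 4 were called again, with log2 fold changes of 7.72 for *En2* and 5.48 for *Pax2*, and with at least 168-fold higher *Pax3* and at least 102-fold higher *En1* in cerebellum.

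The other 4 genes of this group were near the limit of detection. *Pax5* and *Pax8*, which act with *Pax2* at the embryonic boundary, had 18 and 7 counts in the 3 WT cerebella in all. Most of the *Pax5* counts came from 1 library of each genotype, with 15 in WT replicate 3 and 30 in *Snx14*-KO replicate 3. *Pax7*, a factor of the dorsal midbrain, had 0, 1 and 2 counts in WT cerebella and 7, 1 and 6 in *Snx14*-KO cerebella. It had 7, 3 and 2 counts in WT cortices and 0 in the *Snx14*-KO cortices. *Lmx1b*, which acts at the boundary and in serotonin and dopamine neurons, had 1, 5 and 10 counts in WT cerebella and 15, 13 and 16 in *Snx14*-KO cerebella. In cortex its counts were 3, 17 and 4 in WT and 5, 14 and 3 in *Snx14*-KO mice, so 1 library of each genotype held most of them. A count of 0 in a library allows up to 3 counts, which is a level of 0.167 CPM in WT cerebellum replicate 1.

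Among 6 Iroquois and Meis genes, 5 were higher and *Meis2* lower in cerebellum in both genotypes. *Meis1*, a TALE homeodomain factor of cerebellar granule cells, was at 30.8, 30.7 and 30.9 CPM in WT cerebella and 2.87, 4.41 and 2.45 CPM in WT cortices. Its log2 fold change was 3.25 (SE 0.179, adjusted p = 9.43e-08, quasi-likelihood test), and 18.3% of its exon bases are shared with overlapping genes, whose reads the counting could not tell apart. *Meis2*, its paralog in neurons of the striatum, cortex and midbrain roof, was at 93.6, 112 and 94.2 CPM in WT cortices and 7.61, 5.79 and 6.49 CPM in WT cerebella. That is a log2 fold change of -3.90 (SE 0.118, adjusted p = 1.15e-09, quasi-likelihood test). Among *Snx14*-KO mice it was -2.06 (SE 0.459, adjusted p = 0.0038, quasi-likelihood test), with cerebella at 28.7, 4.63 and 29.4 CPM and cortices at 85, 88.1 and 90.8 CPM. Without *Snx14*-KO cerebellum replicates 1 and 3 it was -4.24.

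The 4 Iroquois genes lie in 2 clusters, *Irx1* and *Irx2* on chromosome 13 and *Irx3* and *Irx5* on chromosome 8, and encode TALE homeodomain factors that subdivide the neural plate. *Irx1* was at 11.4, 11.2 and 8.94 CPM in WT cerebella and 0.903, 0.806 and 0.285 CPM in WT cortices, a log2 fold change of 3.96 (SE 0.295, adjusted p = 1.02e-06, quasi-likelihood test). *Irx2* was at 7.56, 7 and 6.17 CPM in WT cerebella, and all 7 counts of the WT cortices came from replicate 1, without which it was at least 83.2-fold higher in cerebellum. The log2 fold changes of *Irx2*, *Irx3* and *Irx5* were 5.70 (SE 0.572), 5.24 (SE 0.37, and 5.97 without WT cortex replicate 1) and 5.52 (SE 0.358), and no cortex overlapped a cerebellum. In *Snx14*-KO mice *Irx2* had 0 counts in the 3 cortices and was at least 193-fold higher in cerebellum, and *Irx1* and *Irx3* had log2 fold changes of 5.54 and 5.31. *Irx5* had 1 count in these cortices and a ratio of 294 (95% exact counting interval 52.4 to 11600).

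**Figure D2:**
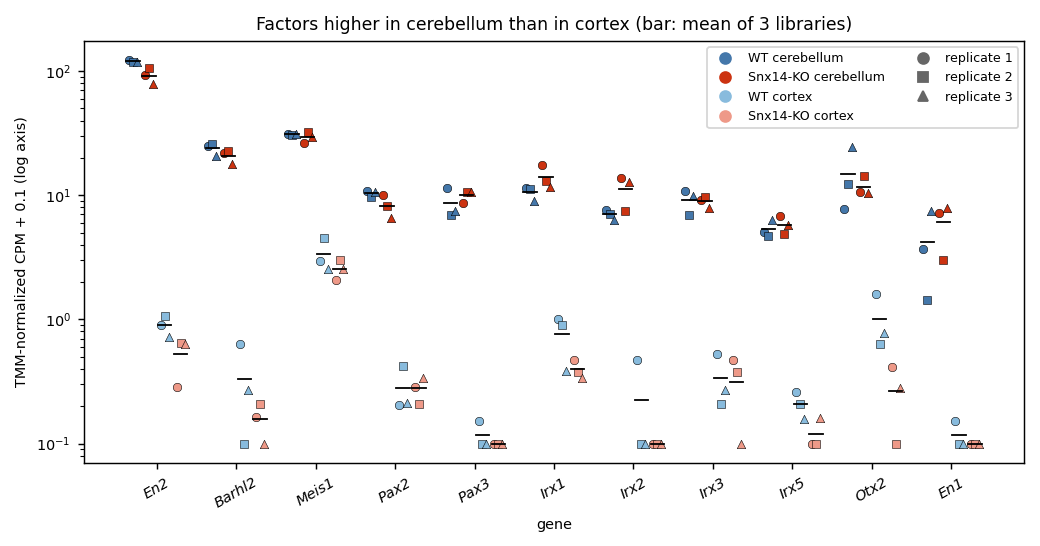
TMM-normalized CPM plus 0.1 (log axis) of 11 factors that were higher in cerebellum, with 1 point per library, colour for tissue and genotype, shape for replicate number and a bar at the mean of 3 libraries. For all 11 genes the 3 cerebella of each genotype lie above the cortices of that genotype, and En1 and Otx2 spread most among the WT cerebella.

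Thalamus and midbrain factors did not share 1 direction. In WT mice 6 of 12 were tested, with 3 higher and 1 lower in cerebellum. *Barhl2*, a Bar-class homeodomain factor, was at 24.9, 26 and 20.5 CPM in WT cerebella and 0.531, 0 and 0.171 CPM in WT cortices. Its log2 fold change was 6.62 (SE 0.4, adjusted p = 1.98e-07, quasi-likelihood test), and 10 of the 13 cortical counts came from WT replicate 1, without which it was 8.05. Among *Snx14*-KO mice the ratio was 355 (95% exact counting interval 121 to 1720). *Otx2*, which specifies forebrain and midbrain in the embryo and is kept on in choroid plexus, was at 7.67, 12.2 and 24.4 CPM in WT cerebella and 1.49, 0.537 and 0.683 CPM in WT cortices (log2 fold change 4.03, SE 0.487, adjusted p = 4.42e-05, quasi-likelihood test). In *Snx14*-KO mice it was at 10.5, 14.1 and 10.3 CPM in cerebella and 0.311, 0 and 0.178 CPM in cortices, for a log2 fold change of 6.15 (SE 0.437, adjusted p = 1.63e-06, quasi-likelihood test). Leaving out *Snx14*-KO cortex replicate 2 gave 5.53 and leaving out replicate 1 gave 6.98.

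*Otx2* and the choroid plexus markers were lowest and highest in the same WT cerebella. Summed over 10 choroid plexus epithelium markers, WT cerebella replicates 1, 2 and 3 were at 78.4, 2780 and 7460 CPM, and *Snx14*-KO cerebella were at 2060, 3250 and 975 CPM. The cortices were between 9.02 and 20.1 CPM except WT replicate 1, at 142 CPM, which also had the most *Otx2* of the cortices. All 10 of these markers were tested in cerebellum, none was at 0 over a group and none differed between the genotypes with an unadjusted p under 0.05. *Hoxb3* had 21 of its 27 WT counts in the WT cerebellum with the most choroid plexus RNA, while *En1* was also high in *Snx14*-KO cerebellum replicate 3, where these markers were lowest among the *Snx14*-KO cerebella. The part of choroid plexus in these levels was not tested. In bulk tissue, fewer cells of a type and less RNA per cell cannot be told apart.

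*Tcf7l2*, the Wnt effector that shapes thalamus and habenula, was at 6.83, 8.1 and 4.68 CPM in WT cerebella and 5.15, 3.87 and 3.25 CPM in WT cortices. These ranges overlapped, and the log2 fold change of 0.68 (SE 0.241, adjusted p = 0.0331, quasi-likelihood test) was lost in a fit over all 12 libraries (adjusted p = 0.37) and without WT cerebellum replicate 1 or 2 or WT cortex replicate 2 or 3 (0.50 to 0.64). Among *Snx14*-KO mice it was 3.32 (SE 0.683, adjusted p = 0.00239, quasi-likelihood test), and 0.56 without *Snx14*-KO cerebellum replicates 1 and 3 (1 *Snx14*-KO library). *Tal1*, a basic helix-loop-helix factor of midbrain inhibitory neurons and of blood and endothelial cells, was at 0.278, 0.868 and 0.585 CPM in WT cerebella and 2.5, 0.914 and 1.03 CPM in WT cortices, just without overlap. Its log2 fold change of -1.35 (SE 0.514, adjusted p = 0.0445, quasi-likelihood test) was lost with the mouse as a replicate block (-1.26, adjusted p = 0.0876), in a fit over all 12 libraries (adjusted p = 0.06), without WT cortex replicate 1 (-0.75, adjusted p = 0.257) and without WT cerebellum replicate 1 (-1.02, adjusted p = 0.129) or 3 (-1.37, adjusted p = 0.0757). In *Snx14*-KO mice the value was 1.10 (SE 0.463, adjusted p = 0.0721, quasi-likelihood test), and -0.48 without *Snx14*-KO cerebellum replicates 1 and 3. *Lef1*, another Wnt effector of the thalamus, and *Gata2*, a zinc finger factor of inhibitory neurons and blood cells, did not pass in either genotype. *Lef1* was at 2.37 to 3.88 CPM in WT cerebella and 2.85 to 5.79 CPM in WT cortices, and *Gata2* at 2 to 2.39 CPM and 1.54 to 3.08 CPM.

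The remaining 6 genes of the group were at or near 0 in WT tissue. *Gbx2*, the hindbrain partner of *Otx2*, had 6 counts in the 3 WT cerebella and 6 in the 3 WT cortices, and 43.5% of its exon bases are shared with an overlapping gene. *Pou4f3*, a POU-domain factor of hair cells and sensory neurons, had 0 counts in all WT libraries. Its counts in *Snx14*-KO mice were 3, 4 and 3 in cerebella and 2, 0 and 0 in cortices. *Pou4f1*, *Pou4f2*, *Gata3* and *Sox14* had 2, 2, 2 and 14 counts over the WT cerebella. Their counts in WT cortex came mostly from replicate 1, which had 8, 3, 8 and 9 of the 14, 3, 10 and 11 counts.

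*Hox* genes pattern hindbrain and spinal cord and are silent in front of them, and the 4 among the 40 factors had 0 counts in each of the 6 cortices. In the 3 WT cerebella *Hoxa2*, *Hoxa5*, *Hoxb3* and *Hoxb5* had 2, 4, 27 and 7 counts, and in the 3 *Snx14*-KO cerebella 5, 4, 14 and 6 counts. *Hoxb3* was thus at least 9.15-fold higher in WT cerebella than in WT cortices and at least 3.12-fold without WT cerebellum replicate 3, with 52.9% of its exon bases shared with an antisense gene. Summed over the 4 genes, the level was 0.278 to 1.49 CPM in WT and 0.433 to 0.622 CPM in *Snx14*-KO cerebella, so the genotypes overlapped. None of the 4 was tested. *Prox1*, a homeodomain factor of hippocampal granule cells, thalamic neurons and lymphatic endothelium, was present in all 12 libraries. It was at 41.2, 35 and 29.1 CPM in WT cerebella and 22.7, 14.8 and 16.6 CPM in WT cortices (log2 fold change 0.96, SE 0.165, adjusted p = 0.000548, quasi-likelihood test), and the *Snx14*-KO value was 1.08.

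**Figure D3:**
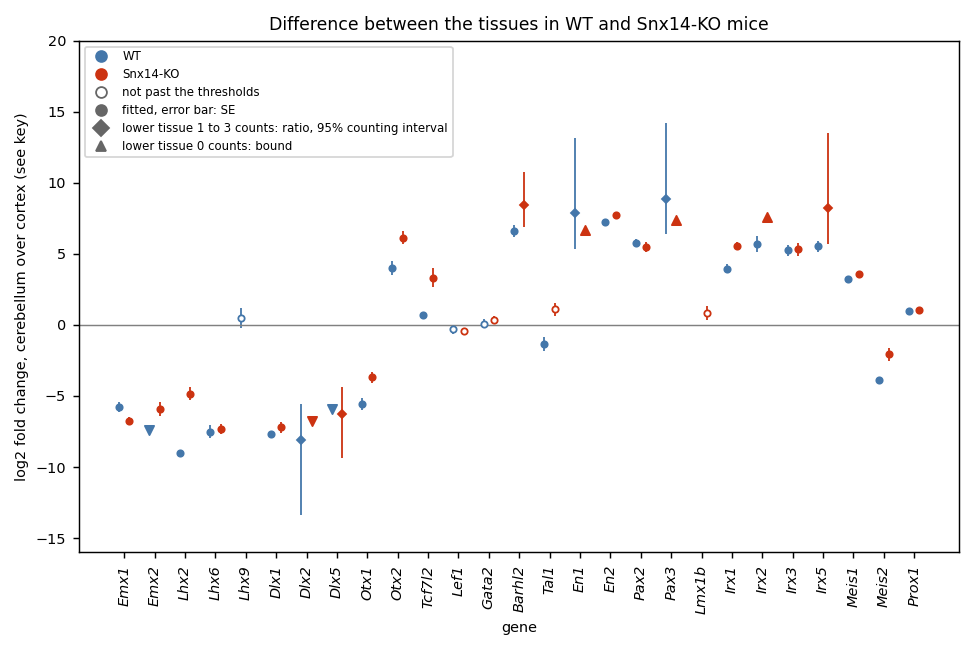
Log2 fold change of cerebellum over cortex in WT (blue) and *Snx14*-KO (red) mice for each factor tested in either genotype. Circles are fitted values with SE, open where the thresholds were not passed, diamonds are ratios with a 95% counting interval where the lower tissue had 1 to 3 counts, and triangles are bounds where it had 0 counts; Lhx2 and Meis2 lie nearer to 0 in *Snx14*-KO than in WT mice, at -4.85 against -9.04 and -2.06 against -3.90.

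Per kilobase of exon, which allows genes to be compared, *En2* led the WT cerebella at 34 ± 0.576 CPM per kb (SD, n = 3), followed by *Barhl2* at 10.3 ± 1.25. *Prox1* at 4.19 ± 0.723, *Irx1* at 4.01 ± 0.525, *Otx2* at 3.49 ± 2.05 and *Irx3* at 3.29 ± 0.759 came next, and neighbours among these 4 differed by less than their SD. In WT cortices *Lhx2* led at 14.2 ± 1.15 CPM per kb (SD, n = 3), followed by *Emx1* at 10.3 ± 1.1, *Meis2* at 8.31 ± 0.884, *Dlx1* at 6.59 ± 0.489 and *Lhx6* at 3.77 ± 0.21. Summed over the 9 forebrain factors, the level was 164 ± 7.71 CPM (SD, n = 3) in WT and 168 ± 1.13 CPM in *Snx14*-KO cortices. The 8 boundary factors summed to 144 ± 5.82 CPM in WT and 118 ± 10.6 CPM in *Snx14*-KO cerebella, most of it *En2*.

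Whether loss of SNX14 alters the factors in cerebellum was asked by setting *Snx14*-KO against WT cerebella. *Lhx9*, *Tcf7l2*, *Tal1* and *Meis2* had the largest values among the factors tested, with log2 fold changes of 1.67 to 3.83, but the high levels were those of *Snx14*-KO replicates 1 and 3 and not of replicate 2. Of the 40 factors 19 were tested, and 0 passed the thresholds in either direction, beside 0.00549% of 18201 genes (the gene *Snx14*). DESeq2 called *Tal1* alone among them. At an unadjusted p under 0.05, 7 factors were higher and 1 was lower, against 5.78% and 2.37% of all genes. The median log2 fold change of the 19 was 0.23, against -0.00 over all genes, with 12 above and 7 below 0.

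*Lhx9* was at 19.6, 0.496 and 21.4 CPM in *Snx14*-KO cerebella, where WT cerebella were at 1.44, 0.405 and 1.06 CPM. Replicates 1 and 3 lay above the WT cerebella and replicate 2 among them, and the log2 fold change was 3.83 (SE 1.01, adjusted p = 0.321, quasi-likelihood test). The gene spans 138825186 to 138848577 of chromosome 1 (GRCm38, minus strand). *Tcf7l2* (chromosome 19, plus strand, 55741820 to 55933654) was at 62.5, 6.56 and 64.1 CPM in *Snx14*-KO and 6.83, 8.1 and 4.68 CPM in WT cerebella. Replicate 2 was again among the WT libraries, and the log2 fold change was 2.78 (SE 0.677, adjusted p = 0.257, quasi-likelihood test). *Meis2* (chromosome 2, minus strand, 115863064 to 116065839) was at 28.7, 4.63 and 29.4 CPM in *Snx14*-KO cerebella, with replicate 2 below the WT values of 5.79 to 7.61 CPM. Its log2 fold change was 1.67 (SE 0.538, adjusted p = 0.42, quasi-likelihood test).

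*Tal1* (chromosome 4, plus strand, 115056426 to 115071755) was at 3.78, 1.05 and 4.55 CPM in *Snx14*-KO and 0.278, 0.868 and 0.585 CPM in WT cerebella. Here the genotypes did not overlap, although *Snx14*-KO replicate 2 lay close to the highest WT value. The log2 fold change was 2.44 (SE 0.58, adjusted p = 0.248, quasi-likelihood test), and DESeq2 gave an adjusted p of 0.00568. *Irx2* was at 13.6, 7.39 and 12.6 CPM in *Snx14*-KO and 7.56, 7 and 6.17 CPM in WT cerebella, so only replicate 2 overlapped the WT range (log2 fold change 0.71, SE 0.219, adjusted p = 0.394, quasi-likelihood test). *Irx1*, its neighbour on the chromosome, was at 17.3, 13 and 11.5 CPM against 11.4, 11.2 and 8.94 CPM, which did not overlap (log2 fold change 0.42, SE 0.17, adjusted p = 0.553, quasi-likelihood test, and 0.23 to 0.53 with 1 library left out, lowest without *Snx14*-KO replicate 1). *Lmx1b* was at 0.717, 0.717 and 0.866 CPM in *Snx14*-KO and 0.0556, 0.289 and 0.532 CPM in WT cerebella, without overlap (log2 fold change 1.37, SE 0.591, adjusted p = 0.596, quasi-likelihood test, and 0.88 to 2.14 with 1 library left out).

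*En2* was the 1 factor that was lower at an unadjusted p under 0.05. It was at 92.9, 105 and 78.2 CPM in *Snx14*-KO and 123, 119 and 119 CPM in WT cerebella, so all 3 *Snx14*-KO cerebella lay below the WT cerebella. The log2 fold change was -0.38 (SE 0.0975, adjusted p = 0.304, quasi-likelihood test), smaller than the 0.50 threshold, and DESeq2 gave -0.39 with an adjusted p of 0.0235. Summed over the 7 granule cell markers, the *Snx14*-KO cerebella were at 2410, 2930 and 2400 CPM and the WT cerebella at 3400, 3300 and 2850 CPM. Both *En2* and the granule cell markers were thus highest in replicate 2 among the *Snx14*-KO cerebella, and none of the 7 markers was at 0 over a group. Whether the share of granule cells has a part in the *En2* level was not tested. The other 11 factors tested had log2 fold changes of -0.34 to 0.54, the highest for *En1*, which ranged from 2.92 to 7.79 CPM among the *Snx14*-KO cerebella.

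Of the 21 factors too low to be tested, some repeated the split within the *Snx14*-KO cerebella. Those given here are named after their values were seen. *Pou4f2*, a POU-domain factor of retinal ganglion cells and the midbrain roof, had 46, 1 and 74 counts in *Snx14*-KO and 0, 1 and 1 counts in WT cerebella, a ratio of 56.9 (95% exact counting interval 15.4 to 475). *Gata3*, which acts beside *Gata2* and *Tal1* in inhibitory neurons, had 27, 0 and 38 counts against 0, 1 and 1, a ratio of 30.5 (8.12 to 258). *Pou4f1*, a POU-domain factor of habenula, midbrain and sensory neurons, had 18, 1 and 22 counts against 1, 0 and 1, a ratio of 19.3 (5 to 164). These intervals cover counting error only and not the spread between mice. *Sox14*, a factor of inhibitory neurons of the visual thalamus and pretectum, had 25, 4 and 33 counts against 4, 6 and 4, and *Lhx2* had 55, 2 and 72 counts against 2, 3 and 1. For all 5 genes replicates 1 and 3 lay above the WT cerebella and replicate 2 within their range. *Pax7* had a ratio of 4.39 (1.22 to 23.8), *Pou4f3*, with 3, 4 and 3 counts, had no such split and was at least 3.13-fold higher and *Emx2* at least 2.82-fold higher in *Snx14*-KO than in WT cerebella. Tested without a filter on low counts, 8 of the 40 factors passed as higher, against 1.05% of 31465 genes.

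**Figure D4:**
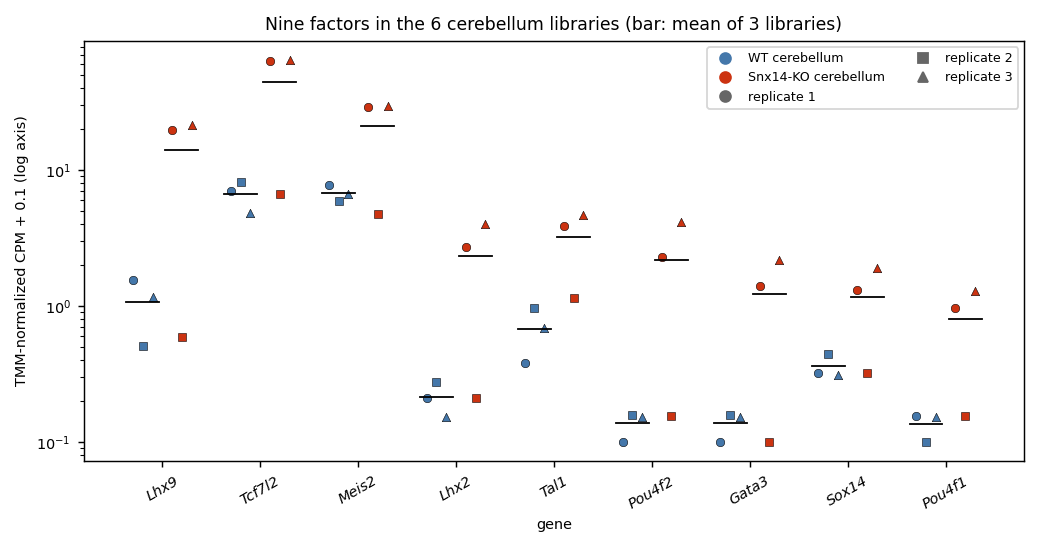
TMM-normalized CPM plus 0.1 (log axis) of 9 factors in the 6 cerebella, with 1 point per library, blue for WT and red for *Snx14*-KO, shape for replicate number and a bar at the mean of 3 libraries. For each gene the *Snx14*-KO circle and triangle (replicates 1 and 3) lie above the 3 WT points, while the *Snx14*-KO square (replicate 2) lies within or next to them.

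With *Snx14*-KO cerebellum replicate 2 left out, 10 of the 25 factors tested were called as higher, against 1.31% of 18649 genes. Of these, *Lhx9*, *Tcf7l2*, *Meis2*, *Tal1* and *Irx2* were among the 19 tested with all libraries. *Lhx2*, *Pou4f1*, *Pou4f2*, *Gata3* and *Sox14* passed the filter on counts only through the 2 *Snx14*-KO libraries in which they were high, so the share of 10 in 25 is set in part by the filter and is no measure of the factors as a group. The log2 fold changes were then 4.39 for *Lhx9* (adjusted p = 0.000265), 3.28 for *Tcf7l2* (adjusted p = 4.02e-05), 2.14 for *Meis2* (adjusted p = 0.000184) and 2.84 for *Tal1* (adjusted p = 0.0123), all from the quasi-likelihood test. Replicate 2 had been seen to be low for these factors before it was left out, so its place is part of the same description. For these 10 factors it was above the 3 WT cerebella for *Tal1*, below them for *Meis2* and within their range for the other 8. Without replicates 1 and 3 instead, the log2 fold changes were -0.96 for *Lhx9*, 0.01 for *Tcf7l2*, -0.51 for *Meis2* and 0.86 for *Tal1* (1 *Snx14*-KO library, so values with no test).

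Over genes with at least 10 counts in the 6 cerebella, *Snx14*-KO replicates 1 and 3 were the 2 highest libraries for 14 of 34 factors (41.2%) and for 9.92% of all 23061 genes. That minimum counts the pair itself, and *Lhx2*, *Pou4f1*, *Pou4f2*, *Gata3* and *Pax7* reached 10 counts only through it. Over genes with at least 10 counts in the other 4 cerebella, an alternative chosen after the data were seen, the order was found for 9 of 25 factors (36%) and for 9.48% of 21726 genes. The pair was picked after its values were seen, so both counts are a description. The 14 of the first count were the 10 above and *Otx1*, *Gata2*, *Pax7* and *Lmx1b*. For *Gata2* and *Lmx1b*, as for *Tal1*, replicate 2 also lay above the 3 WT cerebella. It was at 2.48 CPM for *Gata2* and 0.717 CPM for *Lmx1b*, against at most 2.39 and 0.532 CPM in WT. The 14 factors came from the forebrain, thalamus and midbrain, boundary, and Iroquois and Meis groups, and none was a *Hox* gene.

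*Snx14*-KO replicates 1 and 3 were also the 2 highest cerebella for part of the marker genes of other cells, wherever replicate 2 lay. Over genes with at least 10 counts in the 6 cerebella this order was found for 9.92% of 23061. No such minimum was set for the markers, and lists with 1 gene in this order are near that share. *Slc17a6*, the glutamate transporter of thalamic, midbrain and brainstem neurons, was at 103, 23.3 and 105 CPM in *Snx14*-KO and 30.3, 29.6 and 26.9 CPM in WT cerebella. In the list of 6 thalamic and midbrain excitatory neuron markers it belongs to, *Snx14*-KO replicates 1 and 3 were the 2 highest cerebella for 3 genes (*Slc17a6*, *Slitrk6* and *Tnnt1*). The other 5 markers without *Slc17a6* summed to 147, 143 and 124 CPM in *Snx14*-KO and 152, 160 and 148 CPM in WT cerebella, so the split of the whole sum, at 250, 166 and 229 CPM against 175 to 190 CPM, came from that gene. *Drd2*, a dopamine receptor of striatal neurons, was at 6.26, 0.551 and 6.22 CPM in *Snx14*-KO and 1.11, 0.637 and 0.372 CPM in WT cerebella, and 3 of 7 striatal neuron markers had this order, though their sum was 190 to 255 CPM against 254 to 287 CPM. It was also found for 2 of 10 brainstem neuron markers (*Glra1* and *Calca*), whose sum was 27.1 to 29.6 CPM in *Snx14*-KO and 33.3 to 35.8 CPM in WT cerebella, for *Camk2a* among 8 cortical excitatory neuron markers, for 4 of 10 meningeal fibroblast markers and for 1 of 8 microglia and macrophage markers. It was found for 0 genes of the granule cell, Purkinje cell, choroid plexus, endothelial, oligodendrocyte, ependymal, and interneuron and Golgi cell lists. Microglia and macrophage markers summed to 316 CPM in *Snx14*-KO replicate 3 and 113 to 147 CPM in the other 5 cerebella. Meningeal fibroblast markers summed to 229 to 240 CPM in the 3 *Snx14*-KO and 102 to 157 CPM in the WT cerebella, with 9 of the 10 higher at an unadjusted p under 0.05. Replicate 2, at 229 CPM, thus lay beside replicates 1 and 3 in this sum and above the WT cerebella. None of the genes in these lists was at 0 over a group. The part of other tissue in the levels of the factors was not tested.

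Start-site windows of *Lhx9*, *Tal1*, *Pou4f2* and *Gata3* are shown because these genes were high in the same 2 libraries, and those of *Pax2* and *Emx2* as examples of a cerebellar and a cortical factor. Each is the 300 bases from 250 before to 50 after the start site in RefSeq (GRCm38.p6), written in the direction of the gene, with capitals marking matches on either strand to the homeodomain motif TAATTA, the motif AGATAA of GATA factors, the TCF/LEF motif CTTTGA or the E-box CAGCTG. In *Tal1* a GATA and a TCF/LEF match overlap. The windows of *Lhx9* and *Gata3* lie inside their genes, at the nearest RefSeq start that was available. In the gene annotation these genes begin at 138848577 and 9890034 on the minus strand, and those starts were not examined.
Lhx9 (chr1:138842395-138842694, minus strand): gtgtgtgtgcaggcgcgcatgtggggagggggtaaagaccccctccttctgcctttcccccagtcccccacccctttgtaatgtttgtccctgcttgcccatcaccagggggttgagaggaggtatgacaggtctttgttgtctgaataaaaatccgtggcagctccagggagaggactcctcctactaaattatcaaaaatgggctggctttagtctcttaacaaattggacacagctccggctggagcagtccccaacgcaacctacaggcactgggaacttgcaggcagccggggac
Tal1 (chr4:115056176-115056475, plus strand): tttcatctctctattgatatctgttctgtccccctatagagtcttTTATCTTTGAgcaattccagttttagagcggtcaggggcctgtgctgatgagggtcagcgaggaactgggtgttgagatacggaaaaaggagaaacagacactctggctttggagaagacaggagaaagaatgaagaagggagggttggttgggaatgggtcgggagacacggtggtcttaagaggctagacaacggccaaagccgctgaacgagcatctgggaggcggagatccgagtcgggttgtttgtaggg
Pou4f2 (chr8:78436598-78436897, minus strand): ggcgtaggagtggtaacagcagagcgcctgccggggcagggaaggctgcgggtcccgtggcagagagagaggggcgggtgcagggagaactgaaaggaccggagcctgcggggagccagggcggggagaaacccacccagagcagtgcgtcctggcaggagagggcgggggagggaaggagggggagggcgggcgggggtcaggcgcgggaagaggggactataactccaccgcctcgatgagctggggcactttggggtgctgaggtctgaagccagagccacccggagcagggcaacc
Gata3 (chr2:9878551-9878850, minus strand): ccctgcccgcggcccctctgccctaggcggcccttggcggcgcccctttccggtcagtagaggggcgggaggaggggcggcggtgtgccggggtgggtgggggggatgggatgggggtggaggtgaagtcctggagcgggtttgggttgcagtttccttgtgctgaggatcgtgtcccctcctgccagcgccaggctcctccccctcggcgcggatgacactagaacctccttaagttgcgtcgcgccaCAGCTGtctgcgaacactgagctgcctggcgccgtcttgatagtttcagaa
Pax2 (chr19:44755502-44755801, plus strand): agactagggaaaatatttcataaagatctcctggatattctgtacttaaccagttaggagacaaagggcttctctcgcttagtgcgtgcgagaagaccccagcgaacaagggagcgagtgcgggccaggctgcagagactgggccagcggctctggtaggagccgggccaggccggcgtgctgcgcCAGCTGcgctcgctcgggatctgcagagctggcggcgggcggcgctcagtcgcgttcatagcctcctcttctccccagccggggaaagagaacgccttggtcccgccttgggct
Emx2 (chr19:59458440-59458739, plus strand): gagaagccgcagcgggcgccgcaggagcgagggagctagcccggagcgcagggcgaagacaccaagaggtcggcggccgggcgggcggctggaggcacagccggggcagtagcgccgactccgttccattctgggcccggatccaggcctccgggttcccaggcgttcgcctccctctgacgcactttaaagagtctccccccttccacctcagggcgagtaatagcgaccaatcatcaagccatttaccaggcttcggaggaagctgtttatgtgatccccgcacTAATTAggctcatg
RefSeq windows were matched for 31 of the 40 factors, and of the 6 shown *Lhx9* and *Pou4f2* hold none of the 4 motifs. A homeodomain match was found in 6.45% of the 31, against 5.29% of all 32851 windows of the same length. The shares were 3.23% against 11.2% for GATA, 9.68% against 16% for TCF/LEF and 22.6% against 16.3% for the E-box. The 31 windows were rich in CpG dinucleotides, with a median of 23 per window against 7 over all windows and a median GC content of 64.3% against 52.7%. Among the windows shown that of *Lhx9*, which lies inside the gene, had the fewest CpG at 6. The window of *Tal1* had 11, *Pou4f2* 18, *Gata3* 22, *Pax2* 23 and *Emx2* 26. A match of letters describes the window and not binding by a factor.

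In cortex, *Otx2* had 28, 10 and 12 counts in WT and 5, 0 and 3 in *Snx14*-KO mice, which did not overlap, and was too low to be tested with the filter on counts. Without that filter it was the 1 factor called as lower (log2 fold change -2.46, adjusted p = 0.0132, quasi-likelihood test). The sum of choroid plexus markers was also lower, at 9.02 to 13.7 CPM against 16.8 to 142 CPM, the highest in WT cortex replicate 1. Of these 10 markers 6 were tested in cortex, 0 were called and 2 were lower at an unadjusted p under 0.05. Of 16 factors tested, 0 passed the thresholds by the quasi-likelihood test and 0 of the 13 for which DESeq2 gave an adjusted p, and their median log2 fold change was -0.00, against 0.00 over all genes. At an unadjusted p under 0.05, 0 were higher and 1 was lower, against 2.24% and 2.26% of 18255 genes. The lower factor was *Meis2*, at 85, 88.1 and 90.8 CPM in *Snx14*-KO and 93.6, 112 and 94.2 CPM in WT cortices, which did not overlap. Its log2 fold change was -0.18 (SE 0.0809, adjusted p = 0.996, quasi-likelihood test) and -0.09 to -0.23 with 1 library left out. In WT cortex replicate 2, which had the most *Meis2*, striatal neuron markers were also highest, at 611 CPM summed over 7 genes against 227 to 305 CPM in the other 5 cortices. All 7 were tested, 6 were lower in *Snx14*-KO cortices at an unadjusted p under 0.05 and none was at 0 over a group, and their part in the *Meis2* level was not tested. The 8 forebrain factors tested had log2 fold changes of -0.32 (*Dlx5*) to 0.23 (*Dlx2*). *Lhx2* was at 65.9, 61.4 and 66.7 CPM in *Snx14*-KO and 68.2, 58.5 and 61 CPM in WT cortices, and *Emx1* at 27.3, 20.8 and 21.4 CPM against 19.7, 24 and 23.7 CPM, so both overlapped. The lowest value among the 16 was that of *En2*, -0.88 (SE 0.46, adjusted p = 0.996, quasi-likelihood test), at 3, 10 and 9 counts in *Snx14*-KO and 15, 18 and 11 in WT cortices, which did not overlap. *Gbx2* and *Pax7* had 0 counts in *Snx14*-KO cortices and 6 and 12 counts in WT cortices.

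Whether the genotype effect differed between the tissues was tested in 1 model over the 12 libraries. Of 27 factors tested 0 passed by the quasi-likelihood test or DESeq2. At an unadjusted p under 0.05, the signed difference, cerebellum minus cortex, was above 0 for 11 factors, against 3.97% of 19380 genes, and below 0 for 0. They were *Lhx2* (difference of log2 fold changes 4.19, SE 0.989, adjusted p = 0.336, quasi-likelihood test), *Lhx9* (5.58), *Tcf7l2* (2.64), *Tal1* (2.44), *Meis2* (1.84), *Irx1* (1.57), *Irx2* (4.97), *Irx5* (2.24), *Otx1* (1.90), *Otx2* (2.12) and *Emx2* (4.48). For *Otx2* and *Irx5* the difference came from lower levels in *Snx14*-KO cortex, with means of 0.163 against 0.903 CPM for *Otx2* and 0.0198 against 0.108 CPM for *Irx5*, while cerebella were at 11.6 against 14.7 CPM and 5.71 against 5.27 CPM. *Irx1* was also lower in *Snx14*-KO cortex, at means of 0.295 against 0.665 CPM, with cerebella at 13.9 against 10.5 CPM. For *Irx2*, *Irx5* and *Emx2* a group at or near 0 counts sets part of the value. *Irx2* in cortex had 7 counts in WT replicate 1 and none elsewhere, so its difference between the tissues rests on that library. Single libraries also moved other differences by over 1.5 times. *Lhx9* was at 3.99 without WT cortex replicate 1 and 6.72 without *Snx14*-KO cortex replicate 1, and *Irx5* was at 4.19 without *Snx14*-KO cortex replicate 3. *Otx2* was at 1.51 without *Snx14*-KO cortex replicate 2 and 2.95 without replicate 1. *Otx1* fell to 1.20 without *Snx14*-KO cerebellum replicate 1, *Lhx2* to 3.56 without *Snx14*-KO cerebellum replicate 3, and *Tal1* to 1.84 without WT cortex replicate 1. Without *Snx14*-KO cerebellum replicate 2, 7 of 32 factors passed, against 1.27% of 19822 genes, and *Pou4f1* and *Gata3* among the 7 were tested only because of their counts in replicates 1 and 3. Without *Snx14*-KO cerebellum replicates 1 and 3, the difference was -0.06 for *Lhx2*, 0.78 for *Lhx9*, -0.12 for *Tcf7l2*, 0.87 for *Tal1* and -0.34 for *Meis2*. *Irx1* was at 1.46 there. These values rest on 1 *Snx14*-KO cerebellum and are given with no test.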

How the data were processed

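RNA-Seq was made from whole cerebellum and cerebral cortex, with 3 mice per genotype and 1 library per tissue and mouse. The count tables were deposited by the authors as raw counts of read pairs per gene, not normalized, after read trimming, alignment with STAR to GRCm38 and counting with featureCounts (Subread 2.0.1, per the file headers). Pairs were counted for every gene they overlapped and without regard to strand, so reads of overlapping and antisense genes cannot be told apart. The study's methods call the libraries strand specific, and the labels name a kit without saying so. The submitters' processing notes name DESeq2 1.38.3.

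Of 81881 features per library, 55536 were genes, 97 were spike-in sequences with 0 counts, and 26248 other features, with 0.0506 to 0.0632% of counts, were left out. Genes passing edgeR's filter on low counts were tested with its quasi-likelihood test (edgeR 4.0.16, R 4.3.3, TMM normalization, Benjamini-Hochberg adjustment over all genes tested). A gene was called at an adjusted p under 0.05 and a log2 fold change over 0.50 in either direction, and for the difference between tissues at the adjusted p alone. Standard errors were derived from the F statistic. Levels are TMM-scaled CPM. Against 0 counts, folds are bounds computed with 3 counts over the group, and with 1 to 3 counts a ratio is given with its 95% exact (Clopper-Pearson) interval, which covers counting error only. Scripts were tested on simulated data. Replicates were compared by chi-square and no pair agreed within sampling noise.

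The labels give each mouse a number, so cerebellum and cortex of 1 mouse are paired, with correlations of their deviations from the group means of 0.0249 to 0.295. Between genotypes the numbers are only names. Alternatives were DESeq2 1.42.0, its size factors, no filter, a replicate block, 1 fit over 12 libraries and leaving out each library. The 40 factors, the marker lists, the 52 paralogs and the 41 other regional factors were chosen with earlier results of these data known. In genotype comparisons factors with an unadjusted p under 0.05 were named, and of the other factors at most 5 per direction.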

Additional observations from a re-analysis of the deposited data

How the results depend on the processing

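In WT mice 12 to 14 factors were higher and 9 to 10 lower in cerebellum under every alternative run, and counts between the genotypes depended on the test and on 1 library. In cerebellum, 1 gene was called between the genotypes, against 164 with DESeq2, 347 with no filter on low counts, 45 in 1 fit over 12 libraries and 1 to 254 with 1 library left out. Of the factors 0 were called as higher, against 1 with DESeq2, 8 with no filter and 0 to 10 with 1 library left out, the highest without *Snx14*-KO cerebellum replicate 2. In cortex, 1 gene was called, against 9 with DESeq2, 149 with no filter, 2 in 1 fit over 12 libraries and 1 to 2 with 1 library left out, and no filter called 1 factor as lower (*Otx2*). For the difference between tissues in the genotype effect, 0 genes were called, against 40 with DESeq2, 418 with no filter and 0 to 257 with 1 library left out, and 0 factors, against 12 with no filter and 0 to 7 with 1 library left out. In *Snx14*-KO mice 13 factors were higher in cerebellum than in cortex, against 21 with no filter and 13 to 19 with 1 library left out, the highest without *Snx14*-KO cerebellum replicate 2. Over all genes, 7020 were called in either direction, against 7811 with no filter. With 1 library left out 6667 to 7029 genes were called, the lowest without that same replicate. The cause of these changes was not tested.

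Without *Snx14*-KO cerebellum replicates 1 and 3, chosen after seeing the data, the sign turned for *Lhx9* (-0.96) and *Meis2* (-0.51) in cerebellum, and for *Emx2* (-0.08), *Lhx2* (-0.06), *Meis2* (-0.34) and *Tcf7l2* (-0.12) in the difference between tissues. With the mouse as a replicate block, 13 factors were higher and 9 lower in WT cerebellum, *Tal1* losing its call (-1.26, adjusted p = 0.0876, quasi-likelihood test), and 13 and 9 in *Snx14*-KO mice. The block left 0 factors called between the genotypes in either tissue and 0 for the difference between tissues. Numbers shared by WT and *Snx14*-KO mice gave correlations of -0.0426 to 0.112. Factors with a few counts per library were tested only with no filter, or not at all, and counts of 0 allow up to 3 counts.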

Other observations

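Of 52 paralogs of the 40 factors 12 were tested in WT mice, and 7 were higher and 2 lower in cerebellum, where 19.0% of the 18543 genes tested were higher and 21.4% lower. As with the factors, a gene of 1 tissue passes the filter on counts through that tissue, so these counts are a description. *Lhx1*, a LIM-homeodomain factor of Purkinje cells, had 1169, 1148 and 1062 counts in WT cerebella and 11, 1 and 1 in WT cortices, a log2 fold change of 8.02 (SE 0.299, adjusted p = 4.88e-09, quasi-likelihood test). Its partner *Lhx5* was at 6.75 and *Barhl1*, a factor of granule cell precursors, at 5.30 on the same scale. WT cortex replicate 1 held 11 of the 13 counts of *Lhx1* in WT cortices, 10 of 13 of *Lhx5* and 11 of 12 of *Barhl1*, and without it the log2 fold changes were 9.97, 8.17 and 7.99. *Pax6*, which marks granule cells, was at 2.96 (SE 0.0913, adjusted p = 1.35e-09, quasi-likelihood test). *Dlx6*, the neighbour of *Dlx5*, had 0 counts in WT cerebella and was at least 73.4-fold lower there. *Sox21*, a factor of glia and progenitors, had 296, 237 and 257 counts in *Snx14*-KO and 170, 152 and 154 in WT cerebella, which did not overlap (log2 fold change 0.65, SE 0.117, adjusted p = 0.145, quasi-likelihood test). *Pax6* had 966, 1070 and 795 counts in *Snx14*-KO and 1175, 1078 and 1134 in WT cerebella (-0.33, adjusted p = 0.43, quasi-likelihood test).

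Of 41 other regional transcription factors 24 were tested in WT mice, and 13 were higher and 11 lower in cerebellum, beside the same 19.0% and 21.4% of all genes and under the same filter. *Zic1* and *Zic4*, zinc finger factors of granule cells, had log2 fold changes of 6.23 and 5.21, and *Tbr1*, a factor of cortical projection neurons, of -7.72. In the genotype comparison in cerebellum 20 of the 41 were tested, 10 with a log2 fold change above 0 and 10 below, with a median of -0.02. *Foxp2*, a factor of Purkinje cells, striatum and thalamus, had 522, 234 and 490 counts in *Snx14*-KO and 208, 223 and 156 in WT cerebella (log2 fold change 0.99, adjusted p = 0.321, quasi-likelihood test). *Bcl11b*, a factor of deep layer cortical and striatal neurons, had 158, 29 and 113 counts against 25, 30 and 36 (1.61, adjusted p = 0.383, quasi-likelihood test). *Six3*, a factor of the anterior forebrain and striatum, had 185, 0 and 173 counts against 0, 4 and 6. For *Foxp2*, *Bcl11b* and *Six3* replicates 1 and 3 were the high libraries among the *Snx14*-KO cerebella. Others of the list had replicate 2 as the highest of the 3, with 137, 470 and 222 counts of *Eomes* and 65, 635 and 177 counts of *Nr4a2* in replicates 1 to 3. In WT cerebella replicate 1 was the highest for both, with 539, 140 and 222 counts of *Eomes* and 553, 116 and 121 counts of *Nr4a2*. *Six3*, which was not tested, *Eomes* and *Nr4a2* were named after their values were seen. Over genes with at least 10 counts in the other 4 cerebella, *Snx14*-KO replicates 1 and 3 were the 2 highest cerebella for 4 of 23 other regional factors (17.4%) and 2 of 18 paralogs (11.1%), against 9.48% of 21726 genes.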
